A study of Rattus norvegicus with 6 samples.

Results

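The Hox genes of H9C2 cells were examined with PUM2 knocked down and without. H9C2 is a rat myoblast line from embryonic heart tissue, which the labels call cardiomyocytes. Members were the rows of the deposited count table whose symbol is Hox, a cluster letter from a to d and a number, 31 of 19825 genes. RefSeq's annotation of the rat assembly GRCr8 lists 39 such symbols, and the remaining 8 (Hoxa10, Hoxb1, Hoxb9, Hoxc9, Hoxc12, Hoxc13, Hoxd1 and Hoxd12) were not analysed here. The siPUM2 group holds 3 libraries from cells transfected with small interfering RNA against PUM2, a Pumilio protein that binds and represses messenger RNAs. The NC group holds 3 libraries whose label names an empty vector as the transfected control, and no other agent or allele is named for either group. Whether replicates were separate cultures is not stated, so p-values reflect only variation among these samples, possibly technical.

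Hox genes encode homeodomain transcription factors that give cells their position along the head-to-tail axis of the embryo. Mammals carry them in 4 clusters, Hoxa to Hoxd, and genes with the same number in different clusters are paralogues. Low numbers lie at the end of a cluster that is switched on first and farthest forward in the embryo, and high numbers at the end that is on later and farther back and, in Hoxa and Hoxd, in the limb buds. Polycomb proteins hold unused Hox genes silent, Trithorax proteins keep used ones active, and Pbx and Meis proteins bind DNA together with Hox proteins.

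The libraries held 27704702 to 30579237 counts, so 1 count was worth 0.0327 to 0.0361 CPM (counts-per-million) before TMM scaling between libraries. Pum2 itself was measured at 127, 125 and 120 CPM in siPUM2 1, 2 and 3, against 223, 228 and 225 CPM in NC 1, 2 and 3, a log2 fold change of -0.86 ± 0.0279 (SE; adjusted p = 9.23e-19, edgeR). Library siPUM2 3 stood farthest from the others of its group, with a chi-square over degrees of freedom of 3.55 and 3.82 against them, where all other pairs within a group gave 2.08 to 2.90. Of the markers of the labelled cell type, Nkx2-5 (9.62 FPKM in siPUM2 and 10.6 FPKM in NC, group means), Gata4 (2.37 and 2.59 FPKM) and Tnnt2 (296 and 186 FPKM) were present. The cardiac myosins Myh6 (0.0600 and 0.0900 FPKM) and Myh7 (0.0133 and 0.00333 FPKM) were close to 0. So were the other cardiac markers analysed here. The identity markers were not all stable: Tnnt2 was called higher (1.59-fold, adjusted p = 2.86e-12, edgeR), the only call among 4 tested cardiac markers. That share of 25% compares with 28.4% called among all tested genes. Of 4 tested skeletal myoblast markers 1 was called lower and 2 higher (75% called), and another listed marker was too low to test. The summed level of these myoblast markers was 113 to 122 FPKM in siPUM2 libraries and 113 to 116 FPKM in NC libraries. Myog, a factor of myoblast differentiation, fell (5.64 FPKM in siPUM2 and 12.3 FPKM in NC, log2 fold change -1.12), Cdh15 and Des rose (0.20 and 0.17), and Myod1 was at 38.2 FPKM in siPUM2 and 37.0 FPKM in NC. The part of these cardiac and myoblast markers in the Hox results was not tested. The endothelial markers Pecam1, Cdh5, Kdr and Tek summed to at most 0.05 FPKM in any siPUM2 library and 0.04 FPKM in any NC library. The fibroblast markers Col1a1 (1210 FPKM in siPUM2 and 1286 FPKM in NC), Col1a2 (1564 and 1544 FPKM) and Thy1 (352 and 285 FPKM) were high. Pdgfra and Dcn, of the same list, were close to 0. The epithelial marker Krt8 was at 14.4 and 17.3 FPKM, with Cdh1 close to 0. By edgeR, Thy1 was called higher, and Col1a1 and Krt8 lower. The part of these markers in the Hox results was not tested either.

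In NC cells the Hoxa and Hoxb clusters were on at their front and middle, the Hoxd cluster at positions 8, 9, 10 and 13, and the Hoxc cluster at no position. A gene was taken as on when it had at least 1 FPKM (fragments scaled to gene length and library size) in every NC library. By that measure 14 of the 31 genes were on. Among them were Hoxa2, Hoxa3, Hoxa4, Hoxa5 and Hoxa7 on chromosome 4, Hoxb2, Hoxb4, Hoxb6 and Hoxb7 on chromosome 10, and Hoxd8, Hoxd9, Hoxd10 and Hoxd13 on chromosome 3. None of the 6 Hoxc genes on chromosome 7 reached the level. Hoxd genes carried 48.0% of the summed Hox FPKM in NC, Hoxb 28.9%, Hoxa 22.3% and Hoxc 0.829%.

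**Figure D1:**
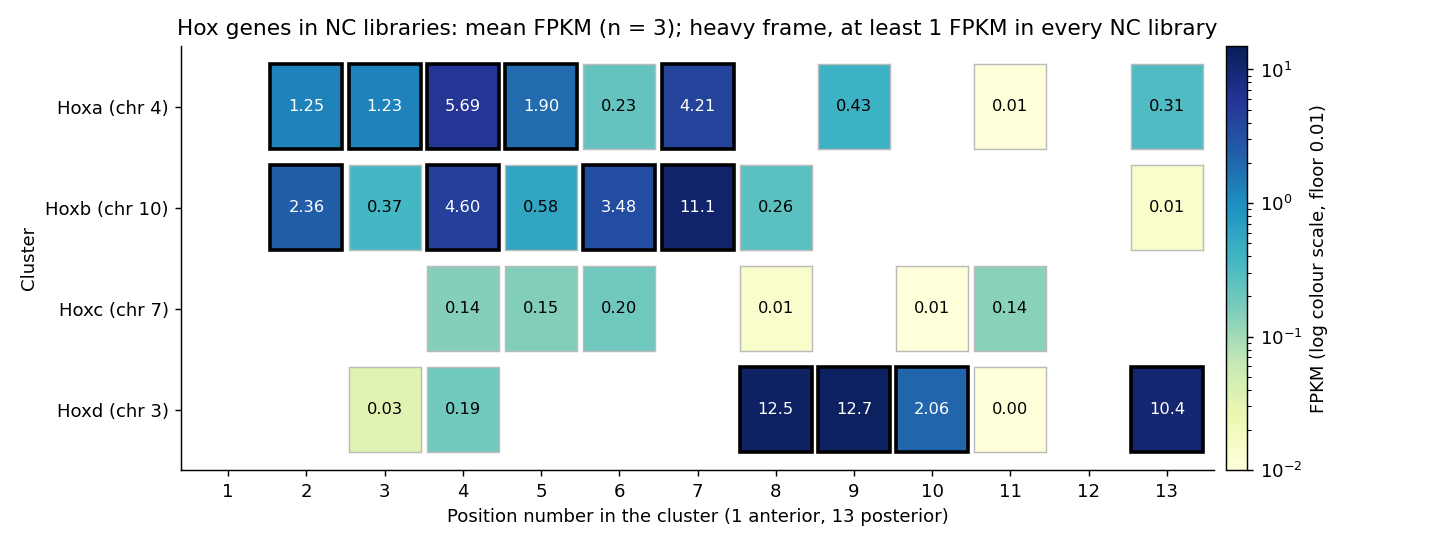
Mean FPKM in the 3 NC libraries for each Hox gene, with the cluster down the page and the position number across it. White places hold no gene shown here, and a heavy frame marks genes with at least 1 FPKM in every NC library. The 13 framed genes shown run from position 2 to 7 in Hoxa, from 2 to 7 in Hoxb and from 8 to 13 in Hoxd, with gaps.

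A contrast between nearby genes lay at the back of the Hoxd cluster, where Hoxd12 was not analysed. Hoxd13, which shapes digits and the genital tubercle in mouse and human, had 783, 882 and 913 counts in NC 1, 2 and 3. Hoxd11, the next gene of the cluster analysed here, which acts in the forearm in mouse, had 0 counts in each NC library, which allows up to 3 counts per library by counting error alone. Hoxd10, on its other side, had 117, 122 and 142 counts in NC. In siPUM2 the pattern was the same, with 796, 759 and 803 counts for Hoxd13, 0, 0 and 1 for Hoxd11 and 178, 135 and 135 for Hoxd10.

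Sequences around the annotated gene start are shown for genes of this contrast and for Hoxa2, which was called lower in siPUM2. They come from RefSeq's table of the build GRCr8, whereas the submitters' processing notes name the build mRatBN7.2. Each spans 250 bases before that start to 50 after it, 5′ to 3′ on the gene's strand. In the Hoxd13 window an atg lies at the annotated start, which may therefore be the coding start. Whether the windows are anchored alike was not tested, and the distance of a motif from the true transcription start is not known. Capitals mark CCAAT (the CCAAT box), TATAAA (the TATA box) and TGATTNAT (the paired Pbx and Hox site), each on either strand, where N is any base.
Hoxd9: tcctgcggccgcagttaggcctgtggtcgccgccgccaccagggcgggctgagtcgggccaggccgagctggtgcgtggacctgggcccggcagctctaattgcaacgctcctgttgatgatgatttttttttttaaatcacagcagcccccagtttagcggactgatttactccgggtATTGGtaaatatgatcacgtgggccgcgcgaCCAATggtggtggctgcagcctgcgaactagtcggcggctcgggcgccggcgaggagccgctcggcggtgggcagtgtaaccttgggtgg
Hoxd13: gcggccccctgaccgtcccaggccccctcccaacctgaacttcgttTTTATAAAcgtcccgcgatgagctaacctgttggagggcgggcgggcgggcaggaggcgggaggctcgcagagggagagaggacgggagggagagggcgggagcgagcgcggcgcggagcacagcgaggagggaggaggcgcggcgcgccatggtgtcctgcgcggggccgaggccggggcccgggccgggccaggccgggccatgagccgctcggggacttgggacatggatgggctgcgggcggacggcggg
Hoxd11: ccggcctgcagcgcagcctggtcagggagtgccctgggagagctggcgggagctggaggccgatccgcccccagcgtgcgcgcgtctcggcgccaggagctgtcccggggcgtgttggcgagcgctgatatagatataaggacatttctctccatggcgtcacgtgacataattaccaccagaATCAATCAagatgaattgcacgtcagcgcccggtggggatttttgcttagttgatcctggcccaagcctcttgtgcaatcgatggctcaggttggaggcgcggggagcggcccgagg
Hoxa2: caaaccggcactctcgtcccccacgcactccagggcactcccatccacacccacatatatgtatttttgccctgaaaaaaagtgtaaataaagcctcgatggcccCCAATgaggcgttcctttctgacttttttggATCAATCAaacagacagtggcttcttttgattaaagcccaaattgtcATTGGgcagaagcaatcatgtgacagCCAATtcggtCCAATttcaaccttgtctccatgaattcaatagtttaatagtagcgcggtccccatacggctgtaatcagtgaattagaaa
The windows are chr3:80007756-80008055 (plus strand) for Hoxd9, chr3:79977827-79978126 (plus) for Hoxd13, chr3:79992144-79992443 (plus) for Hoxd11 and chr4:82595643-82595942 (minus) for Hoxa2. Hoxd9 had the highest mean FPKM of all members, so it stands for the active genes.

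The Hoxd13 and Hoxd11 windows were both rich in CpG, with 36 and 25 CpG pairs against a median of 7 over 33469 RefSeq promoters of the same length. Hoxd13 held 5 matches to the GC box GGGCGG and a TATAAA that reads as a match on both strands, where Hoxd11 held 1 GC box and no TATAAA. Since the windows may be anchored at different features, this contrast in motifs and CpG pairs is uncertain. Hoxd11 and Hoxa2 each held 1 TGATTNAT, which 3.18% of all promoters hold, and Hoxa2 held 4 CCAAT, a motif found in 37.5% of them. TATAAA occurs in 14.2% and GGGCGG in 33.1% of all promoters. Of the 31 members 16 had a promoter in the table, 8 on and 8 not on. CpG pairs numbered 9 to 49 (median 28) in the 8 that were on and 6 to 42 (median 20) in the 8 that were not, ranges that overlap almost wholly. No Hoxb gene had a promoter in the table, so the Hoxb genes that were on, Hoxb4 and Hoxb7 among them, are left out of this comparison.

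The members that were on spanned 1.23 to 12.7 FPKM in NC. Hoxd9 (12.7 ± 0.451 FPKM; SD, n = 3) and Hoxd8 (12.5 ± 0.981 FPKM) led and overlapped between libraries. Hoxb7 (11.1 ± 0.179 FPKM) and Hoxd13 (10.4 ± 0.335 FPKM) came next, and from Hoxd8 down to Hoxb2 no library of a gene reached the lowest library of the gene above it. Hoxa4 (5.69 ± 0.494), Hoxb4 (4.60 ± 0.0850), Hoxa7 (4.21 ± 0.05) and Hoxb6 (3.48 ± 0.265 FPKM) held the middle of the order. Hoxb2, Hoxd10 and Hoxa5 followed at 1.90 to 2.36 FPKM, each overlapping the next. Hoxa2 (1.25 ± 0.219 FPKM) and Hoxa3 (1.23 ± 0.00577 FPKM) lay just above the limit, and Hoxb5 (0.580 ± 0.0917 FPKM) and Hoxa9 (0.430 ± 0.118 FPKM) just below it. Only 5 Hox genes (Hoxa4, Hoxb7, Hoxd8, Hoxd9 and Hoxd13) reached the median of all tested genes, 5.32 FPKM.

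Paralogues of one number differed widely in level. At position 4, Hoxa4 and Hoxb4 were on while Hoxc4 (0.143 FPKM in NC) and Hoxd4 (0.193 FPKM) were not. At position 8 the level came from Hoxd8 alone, with Hoxb8 at 0.263 FPKM and Hoxc8 at 0.0133 FPKM, and at position 9 from Hoxd9, with Hoxa9, a regulator of blood stem cells, at 0.430 FPKM. At position 13, Hoxa13, the partner of Hoxd13 in digit formation in mouse and human, was at 0.310 FPKM and the prostate gene Hoxb13 at 0.0133 FPKM, against 10.4 FPKM for Hoxd13. Position 11 was the only measured number with no gene on, as Hoxa11 (0.00667 FPKM), Hoxc11 (0.137 FPKM) and Hoxd11 (listed at 0) were all under the limit.

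The FPKM scale divides by the length that the authors used, and some low genes were long. Hoxb3 had 174, 152 and 152 counts in NC, close to the 160, 182 and 203 of Hoxb6, yet 0.370 FPKM against 3.48 FPKM. The ratio of counts to FPKM corresponds to 14.6 kb for Hoxb3, 11.5 kb for Hoxc6 and 10.5 kb for Hoxd4, and to 1.76 kb for Hoxb6. By counts, 24 genes had at least 10 in every NC library, the 14 that were on and Hoxa6, Hoxa9, Hoxa13, Hoxb3, Hoxb5, Hoxb8, Hoxc4, Hoxc5, Hoxc6 and Hoxd4. In RefSeq's GRCr8 annotation Hoxa3 overlaps Hoxa4, Hoxa5 and Hoxa6, and Hoxc6 overlaps Hoxc4 and Hoxc5. The labels describe strand-specific libraries, but how reads of overlapping genes were counted is not given in the sources used here, so those values are uncertain.

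**Figure D2:**
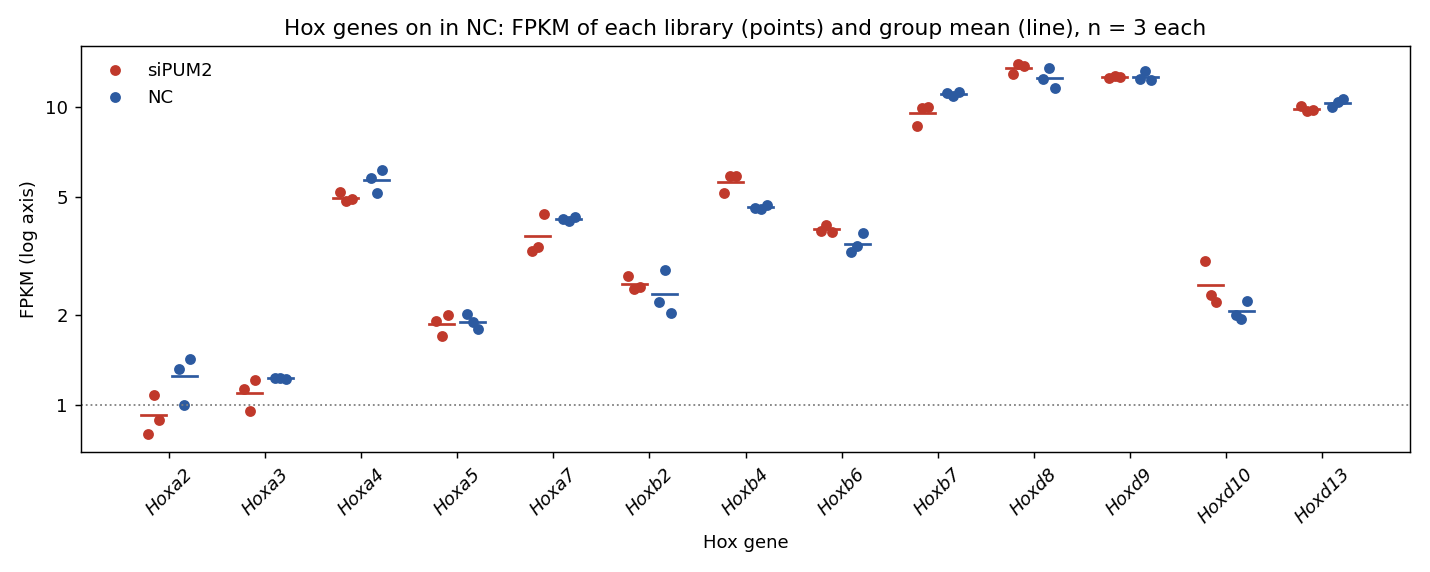
FPKM on a log axis (both groups, all 6 libraries) for 13 Hox genes on in NC, with siPUM2 left of NC for each gene; points are libraries, short lines are means of 3, and the dotted line is 1 FPKM. The groups do not overlap for Hoxb4 and Hoxb6, higher in siPUM2, or for Hoxb7 and, by 0.01 FPKM, Hoxa3, lower in siPUM2; the Hoxa3 groups overlap as CPM.

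The comparison of siPUM2 with NC addresses the transcriptome of these cells with PUM2 lowered. If NC cells received an empty vector, as labelled, loss of PUM2 and the kind of transfection cannot be told apart. Few Hox genes passed the test, and no gene that was on had an estimated change of more than 1.5-fold, though intervals can reach beyond the estimate. Of the 31 genes, 25 passed edgeR's filter on low counts and were tested. Of these, 1, Hoxb4, was higher in siPUM2 at an adjusted p under 0.05, and 2, Hoxb7 and Hoxa2, were lower. Among all 12985 tested genes 28.4% were called, 15.1% higher and 13.3% lower, against 12% of the tested Hox genes. That difference was not tested. The Hox genes were measured less precisely, with a median SE of the log2 fold change of 0.140 against 0.0614 over all tested genes. Their median log2 fold change was -0.00374 (0.00106 over all tested genes), with 12 above 0 and 13 below, and the median of its size was 0.162 (0.115 over all). In 5 of the 25 (20%), Hoxa13, Hoxb4, Hoxb6, Hoxb7 and Hoxd10, all siPUM2 libraries lay on one side of all NC libraries as CPM, against 39.9% of all tested genes.

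**Figure D3:**
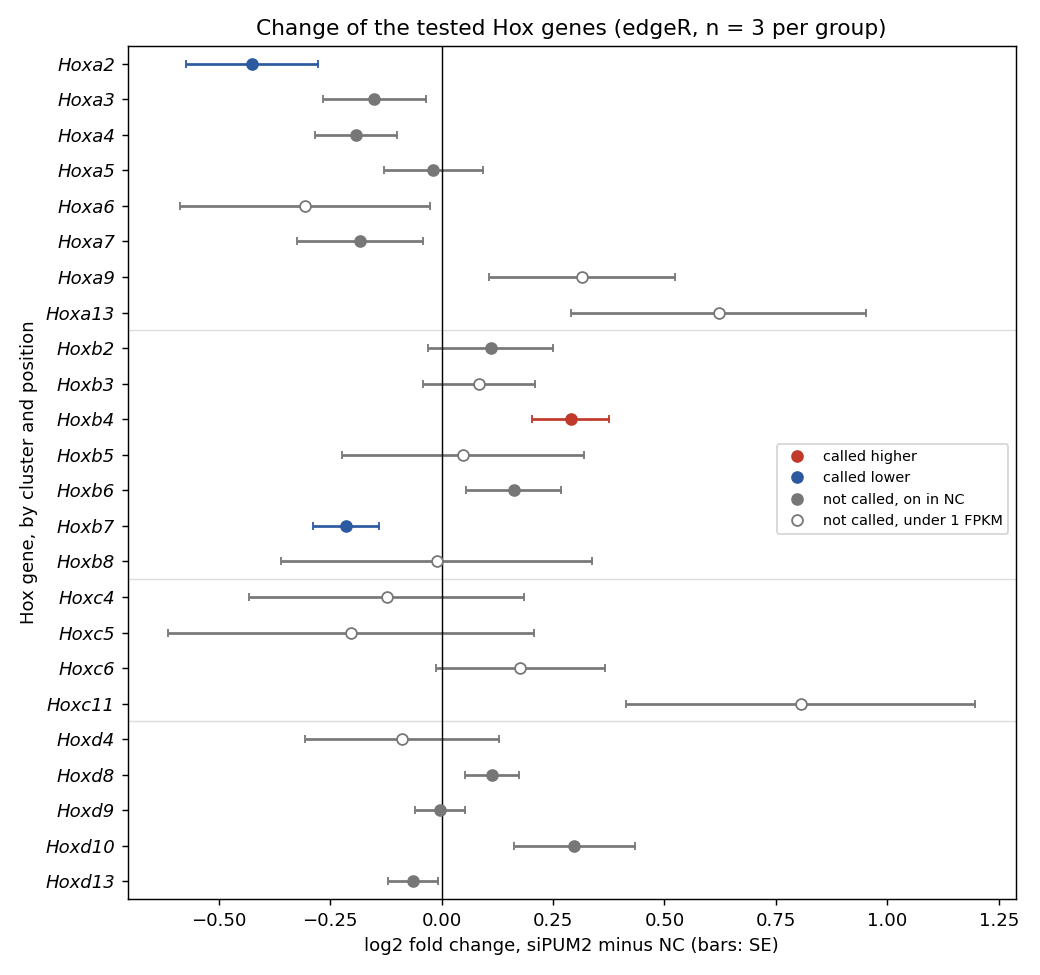
Log2 fold change, siPUM2 minus NC, of 24 tested Hox genes with its SE, ordered by cluster and position; filled points are genes on in NC, open points genes under 1 FPKM. Hoxb4 lies to the right at 0.29, and Hoxa2 and Hoxb7 to the left at -0.43 and -0.21; the widest bars belong to genes of the Hoxc cluster and other low genes.

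Hoxb4, which expands blood stem cells when overexpressed in mouse, was higher in siPUM2. It was measured at 10.2, 11.7 and 11.7 CPM in siPUM2 1, 2 and 3, against 9.12, 9.07 and 9.36 CPM in NC 1, 2 and 3. Every siPUM2 library lay above every NC library, and siPUM2 1 was the lowest of its group. The rise was 1.22-fold (95% interval 1.08 to 1.38; log2 fold change 0.29 ± 0.0865, SE; adjusted p = 0.0118, edgeR). The call was lost without siPUM2 2 (adjusted p = 0.0590, edgeR) or without siPUM2 3 (0.0544), and the log2 fold change over all alternatives was 0.24 to 0.35.

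Hoxb7, the Hoxb gene of highest FPKM, fell. It was measured at 11.8, 13.6 and 13.7 CPM in siPUM2 1, 2 and 3, against 15.3, 14.9 and 15.3 CPM in NC 1, 2 and 3. The groups did not overlap, and siPUM2 1 was the lowest library. The log2 fold change was -0.21 ± 0.0741 (SE; adjusted p = 0.0293, edgeR), a 1.16-fold fall. It lost its call with DESeq2 (adjusted p = 0.0714), without siPUM2 1 (log2 fold change -0.15, adjusted p = 0.202, edgeR) and without any NC library (adjusted p = 0.0505 to 0.0739).

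Hoxa2, which gives the second pharyngeal arch and the hindbrain next to it their identity in mouse, fell 1.34-fold. It was measured at 3.20, 4.32 and 3.57 CPM in siPUM2 1, 2 and 3, against 5.26, 4.01 and 5.64 CPM in NC 1, 2 and 3. The groups overlapped, since NC 2 lay below siPUM2 2. The log2 fold change was -0.43 ± 0.148 (SE; adjusted p = 0.0307, edgeR), and the mean FPKM was 0.923 in siPUM2 and 1.25 in NC. The call was lost with DESeq2 (adjusted p = 0.0600), on log2(FPKM + 1) (0.0883) and log2(FPKM + 0.1) (0.0924), and without siPUM2 1 (0.139), siPUM2 3 (0.0574), NC 1 (0.109) or NC 3 (0.183). By the FPKM limit, Hoxa2 and Hoxa3 were not on in every siPUM2 library, so that 12 genes were on there and 14 in NC.

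**Figure D4:**
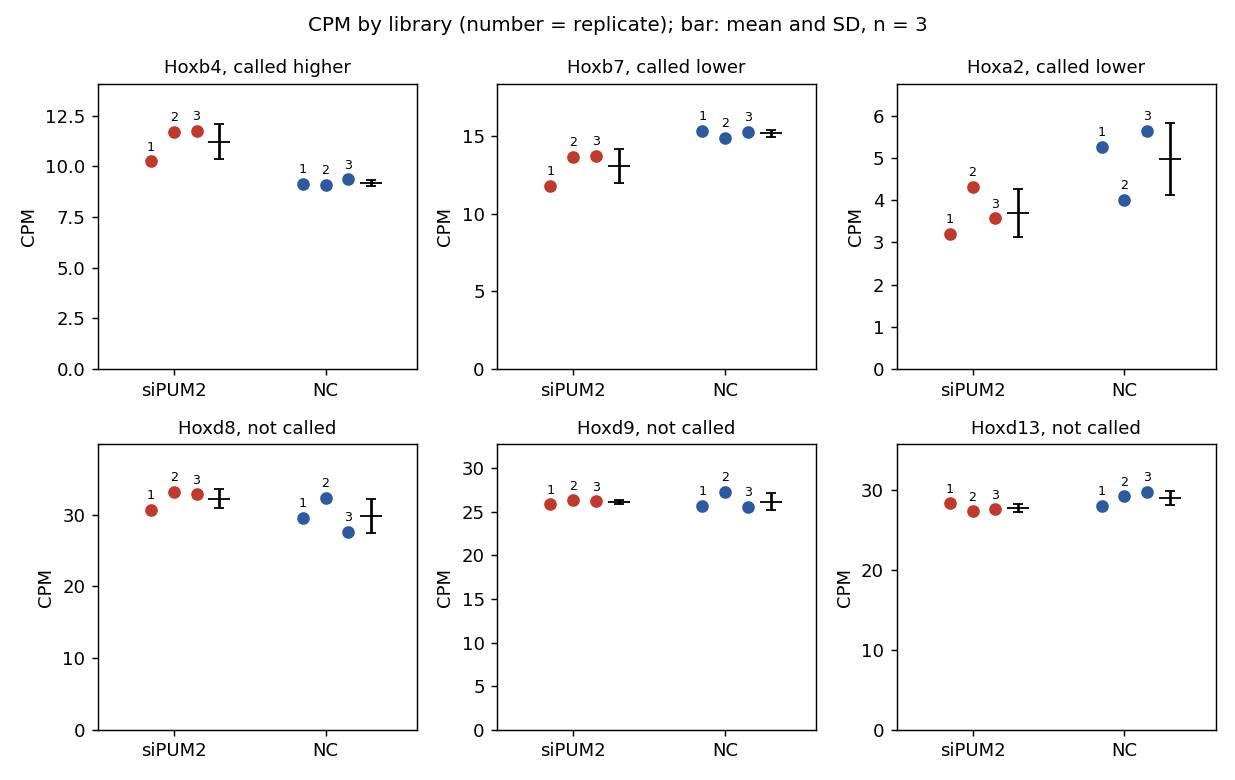
CPM of each library for the 3 called Hox genes and the 3 Hoxd genes of highest level, siPUM2 left of NC, on axes that start at 0; numbers are replicates and bars are the mean and SD of 3. Hoxb4 and Hoxb7 do not overlap between groups, Hoxa2 does, and Hoxd9 sits between 25.6 and 27.3 CPM in all 6 libraries.

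The abundant Hoxd genes were the most precisely measured members and were not called. Hoxd9, a gene of the upper limb segment in mouse, was at 25.9, 26.3 and 26.2 CPM in siPUM2 and 25.7, 27.3 and 25.6 CPM in NC. Its fold change of 0.997 had a 95% interval of 0.920 to 1.08 (adjusted p = 0.974, edgeR). Hoxd13 was at 28.3, 27.3 and 27.6 CPM in siPUM2, against 28.0, 29.2 and 29.8 CPM in NC, a fold change of 0.956 with an interval of 0.884 to 1.04 (adjusted p = 0.427, edgeR). For Hoxd8 the values were 30.7, 33.2 and 32.9 CPM in siPUM2 and 29.5, 32.3 and 27.6 CPM in NC, with a fold change of 1.08 and an interval of 0.992 to 1.18 (adjusted p = 0.174, edgeR). The groups overlapped for each of these genes, and the intervals leave room for changes of up to 1.18-fold higher for Hoxd8.

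Hoxd10, which acts in limb and spinal motor neurons in mouse, had 6.33, 4.86 and 4.63 CPM in siPUM2 and 4.19, 4.04 and 4.63 CPM in NC. The highest NC library nearly equalled the lowest siPUM2 library. As FPKM the groups overlapped, with 2.21 in siPUM2 3 and 2.23 in NC 3. Its log2 fold change of 0.30 ± 0.136 (SE) was as large as that of Hoxb4 but was not called (adjusted p = 0.104, edgeR). The value rested on siPUM2 1, without which it was 0.15 (adjusted p = 0.534, edgeR), while without siPUM2 3 it was 0.38 and called (adjusted p = 0.0452, edgeR). Hoxd8 was likewise called only without NC 2 (0.17, adjusted p = 0.0441, edgeR).

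Along the Hoxa cluster the genes from Hoxa2 to Hoxa7 had negative log2 fold changes, though Hoxa2 was the one called. Hoxa4 had 8.86, 8.28 and 8.44 CPM in siPUM2 and 9.87, 8.84 and 10.5 CPM in NC (-0.19 ± 0.0923, SE; unadjusted p = 0.0477 and adjusted p = 0.126, edgeR). Hoxa3, of the pharyngeal organs in mouse, was at -0.15, Hoxa5, of the lung and ribs in mouse, at -0.02, and Hoxa7 at -0.18. Their SE were 0.116, 0.110 and 0.141, and Hoxa5 turned sign without siPUM2 2 or without NC 1. Hoxa3 overlaps Hoxa4, Hoxa5 and Hoxa6 in the annotation, so these signs may not be separate. The low genes Hoxa6 (-0.31), Hoxa9 (0.31) and Hoxa13 (0.62 ± 0.331, SE; adjusted p = 0.170, edgeR) were not called either. Hoxa13 had 17, 21 and 27 counts in siPUM2 and 12, 17 and 15 in NC, values that did not overlap as CPM.

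The rest of Hoxb lay near 0. Hoxb6 was higher in every siPUM2 library (6.76, 7.09 and 6.73 CPM) than in any NC library (5.72, 6.03 and 6.62 CPM), but was not called (log2 fold change 0.16 ± 0.106, SE; adjusted p = 0.277, edgeR). Hoxb2, a hindbrain gene in mouse, was at 0.11, Hoxb3 at 0.08, Hoxb5 at 0.05 and Hoxb8 at -0.01, with SE of 0.126 to 0.349. Hoxb4 and Hoxb7 moved in opposite directions within one cluster, and the summed Hoxb level was 43.1 ± 2.60 CPM in siPUM2 and 41.7 ± 0.342 CPM in NC (SD, n = 3 each).

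Hoxc genes were too low for firm statements. Hoxc6 had 83, 74 and 63 counts in siPUM2 and 77, 71 and 55 in NC (log2 fold change 0.18 ± 0.190, SE). Hoxc11 had 20, 20 and 12 counts in siPUM2 and 7, 9 and 15 in NC, with overlapping groups and a log2 fold change of 0.81 ± 0.392 (SE; adjusted p = 0.130, edgeR). Hoxc4 (-0.12) and Hoxc5 (-0.20) turned sign when 1 library was left out, as did Hoxd4 (-0.09). The 6 members not tested, Hoxa11, Hoxb13, Hoxc8, Hoxc10, Hoxd3 and Hoxd11, had at most 6 counts in any siPUM2 library and 5 in any NC library.

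Summed over all 31 members, the Hox level did not move beyond the spread between libraries. It was 77.2, 79.2 and 79.7 FPKM in siPUM2 1, 2 and 3, against 77.8, 79.3 and 79.2 FPKM in NC 1, 2 and 3. Hoxa summed to 16.3 ± 0.758 FPKM in siPUM2 and 17.6 ± 0.936 FPKM in NC, and Hoxd to 38.8 ± 0.226 and 37.8 ± 1.31 FPKM (SD, n = 3 each). Genes at positions 9 to 13 carried 33.4% ± 1.02 of the level in siPUM2 and 33.0% ± 0.640 in NC, and those at positions 1 to 3 carried 9.63% ± 0.366 and 9.57% ± 0.114 (SD, n = 3 each). In bulk RNA a lower level in every cell and fewer cells with the message cannot be told apart.

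**Figure D5:**
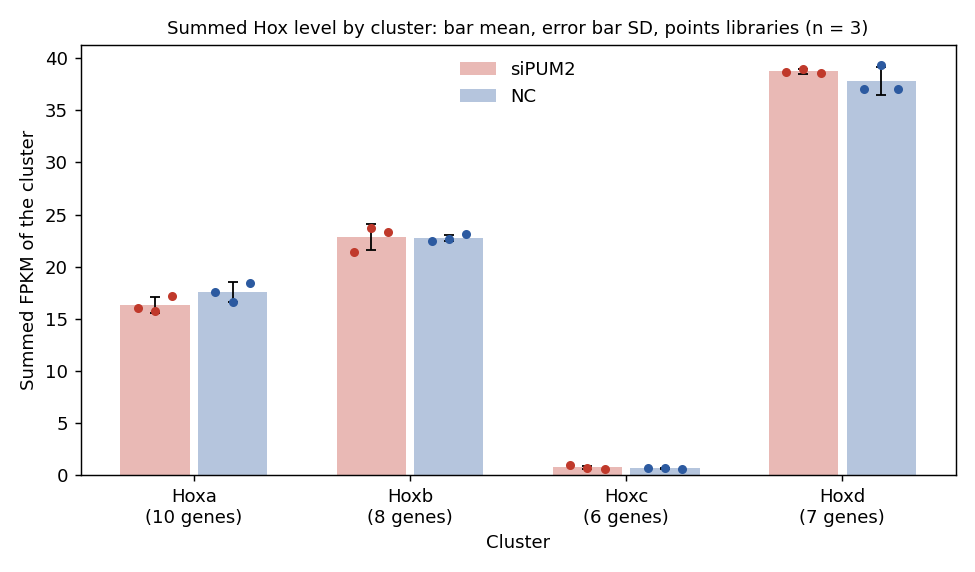
Summed FPKM of the members of each cluster, siPUM2 left of NC; bars are means, error bars SD and points the 3 libraries of a group. Hoxd sums to 38.8 FPKM in siPUM2 and 37.8 FPKM in NC, Hoxc to 0.740 and 0.653 FPKM, and the groups overlap in every cluster.

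Of the noncoding genes inside the clusters that were analysed here 1 was tested and 0 were called by edgeR. Of the genes beside the clusters 1 of 7 tested was called (14.3%, against 28.4% of all tested genes). Hotairm1, a noncoding RNA of the Hoxa cluster, had 113, 112 and 62 counts in siPUM2 and 93, 80 and 87 in NC (log2 fold change 0.21 ± 0.189, SE; adjusted p = 0.456, edgeR). The groups overlapped, with siPUM2 3 below all other libraries. Without that library Hotairm1 was called higher (log2 fold change 0.45, adjusted p = 0.0395, edgeR). The noncoding genes Hoxb5os, Hoxa11-as and Hoxaas3 and the protein-coding gene Evx1 had at most 10 counts in any library and were not tested. Among the flanking genes Lnpk, beside Hoxd, rose (52.4 ± 1.88 CPM in siPUM2 and 45.7 ± 2.71 CPM in NC; log2 fold change 0.20, adjusted p = 0.00375, edgeR). Its call was lost on both log2(FPKM) scales (adjusted p = 0.0703 and 0.0722, limma) and without NC 3 (0.0552, edgeR). The other 6, Skap2, Hibadh, Calcoco1, Smug1, Cbx5 and Mtx2, were not called (log2 fold changes -0.10 to 0.10), though Hibadh was without siPUM2 2 (0.12, adjusted p = 0.0443, edgeR) or with no filter on low counts (0.0499).

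The DNA-binding partners of Hox proteins moved in both directions. Of 13 tested partners and binding regulators 2 rose and 4 fell, with a median log2 fold change of -0.08, against 28.4% called and a median of 0.00106 over all tested genes. Pbx3, a Hox partner of the Pbx family, rose 1.13-fold, with 50.4 ± 2.42 CPM in siPUM2 and 44.5 ± 0.431 CPM in NC (adjusted p = 0.00576, edgeR), a call lost without siPUM2 1 (0.0533). Pknox1, a Meis relative that pairs with Pbx proteins, fell (log2 fold change -0.23, adjusted p = 0.00804, edgeR), as did Pbxip1, a Pbx-binding inhibitor (-0.11, adjusted p = 0.00234). Meis1 also fell (adjusted p = 0.0395, edgeR) and is named after its value was seen. Tgif1, a repressor of the same TALE homeodomain class, rose 1.16-fold, to 56.5 ± 1.52 CPM in siPUM2, against 48.8 ± 2.57 CPM in NC (adjusted p = 0.00105, edgeR). Pbxip1 (54.8 FPKM in siPUM2 and 59.1 FPKM in NC), Gmnn, a replication inhibitor that also binds Hox proteins (37.7 and 40.0 FPKM), and Tgif1 (36.0 and 31.2 FPKM) were the highest per length.

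Polycomb and Trithorax genes were called at the background rate. Of 45 tested, 5 rose and 8 fell (28.9% called), with a median log2 fold change of -0.02. Cbx6, a reader of the Polycomb histone mark, rose 1.15-fold (357 ± 5.63 CPM in siPUM2 and 310 ± 2.95 CPM in NC; adjusted p = 2.46e-07, edgeR), and Pcgf5, of Polycomb complex PRC1, rose (log2 fold change 0.17, adjusted p = 0.000125). Rbbp4, a histone-binding subunit shared by Polycomb and other complexes, fell 1.14-fold (84.3 ± 1.89 CPM in siPUM2 and 96.0 ± 1.54 CPM in NC; adjusted p = 2.61e-05, edgeR). Psip1, which tethers the menin and MLL proteins to chromatin, fell (-0.19), as did Mllt1 (-0.19), an elongation complex member whose gene fuses with MLL in leukaemia. The highest of the list per length were Rbbp7 (167 FPKM in siPUM2 and 173 FPKM in NC), Dpy30 (133 and 127 FPKM) and Cbx6 (57.2 and 49.7 FPKM).

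Retinoic acid, which switches on front Hox genes in the embryo, is read through Rar and Rxr receptors. None of the 12 tested genes of this list was called by edgeR, against 28.4% of all tested genes, and the list's median log2 fold change was -0.04. In the list 2, Rara and Cdx2, had an unadjusted p under 0.05. DESeq2 and limma voom called none either, and those genes are named for that p. Cdx2, a homeobox activator of Hox genes in the embryo, had 404, 439 and 404 counts in siPUM2 and 451, 526 and 494 in NC, and the groups did not overlap as CPM (log2 fold change -0.17 ± 0.0704, SE; adjusted p = 0.0650, edgeR). Without siPUM2 2 it was called (-0.23, adjusted p = 0.0359, edgeR). The receptors Rarg (15.4 FPKM in siPUM2 and 16.2 FPKM in NC) and Rara (9.62 and 10.4 FPKM) were the highest of the list.

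A chosen list of homeobox genes outside the clusters, without the partners above, gave 3 higher and 1 lower of 23 tested (17.4% called). Its median log2 fold change was 0.07, against 28.4% called and a median of 0.00106 over all tested genes. Prrx1, a factor of limb and connective tissue mesenchyme, rose (log2 fold change 0.26; 74.4 ± 3.46 CPM in siPUM2 and 62.2 ± 2.49 CPM in NC; adjusted p = 1.32e-05, edgeR). Zfhx3 rose (log2 fold change 0.19, adjusted p = 0.0138, edgeR). It lost its call without siPUM2 2 (0.0561, edgeR) and on both log2(FPKM) scales (0.145 and 0.211, limma). Hlx, a factor of gut and liver mesenchyme in mouse, fell 1.19-fold (12.04 ± 0.884 CPM in siPUM2 and 14.3 ± 0.717 CPM in NC; adjusted p = 0.0159, edgeR), and lost its call without siPUM2 1, siPUM2 2 or NC 1 (adjusted p = 0.0627 to 0.0882, edgeR). The highest of this list per length were Vax2 (17.6 FPKM in both groups), Nkx2-5 and Prrx1 (12.5 FPKM in siPUM2 and 10.5 FPKM in NC).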

How the data were processed

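RNA of 6 libraries, 3 siPUM2 and 3 NC, is given as a table of counts and a table of FPKM, both deposited by the authors with 1 value per gene and library. Reads were aligned with HISAT2 to mRatBN7.2, and DESeq2 was used, per the submitters' processing notes. Not given in the sources used here: versions, counting program, strand setting and annotation. The deposited counts are whole numbers with no scaling, and the deposited FPKM values carry 2 decimals, so low levels are coarse. The table held 19825 genes (19535 with FPKM), 0 rows without a gene name and 0 columns left unmapped.

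Library sizes were 27704702 to 30579237 counts. The test was edgeR 4.0.16's quasi-likelihood test (R 4.3.3) with TMM scaling, siPUM2 minus NC, after filterByExpr removed 6840 genes and kept 12985. P-values were adjusted by Benjamini-Hochberg over all 12985, with calls made under 0.05. CPM is the count over the library total. Intervals of fold changes are 95% and cover variation among these libraries. The limit of 3 for a count of 0 covers counting error only. Sequences are from RefSeq, build GRCr8.

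The members and gene lists were chosen with earlier results of these data known. Named were every Hox gene, Pum2, the called genes of each list with the 3 lowest p in each direction and the 3 of highest FPKM, and noncoding and flanking genes of the clusters. Some genes that this rule names are not reported here, though counts and sums include them. The promoters of Hoxd13 and Hoxd11 were added after their values were seen. Same-numbered libraries did not deviate together (correlations 0.0190, 0.0296 and 0.00387). Alternatives were DESeq2 1.42.0, limma 3.58.1 (voom, and log2(FPKM + 1) and log2(FPKM + 0.1)), other scalings and filters, a replicate block and each library left out. The fit was tested on simulated data.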

Additional observations from a re-analysis of the deposited data

How the results depend on the processing

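Hox genes called higher numbered 1, or 0 to 2 with a library left out; without siPUM2 3 the 1 call was Hoxd10. Those called lower numbered 2, but 0 with DESeq2, 1 on log2(FPKM + 1), 1 on log2(FPKM + 0.1) and 0 to 2 with a library left out. The fit with a replicate block gave 1 higher and 2 lower; the numbers do not pair the libraries, and siPUM2 3 correlated best with NC 1. With a library left out, cofactors called higher numbered 1 to 3, retinoic acid genes lower 0 to 1, other homeobox genes higher 1 to 4 and lower 0 to 1. Polycomb and Trithorax genes called higher numbered 3 with DESeq2, 3 on log2(FPKM + 1), 3 on log2(FPKM + 0.1) and 2 to 5 with a library left out. The number on in NC was 25 at 0.1 FPKM, 14 at 0.5 FPKM, 24 at 10 counts and 10 at 2 FPKM, which drops Hoxa2, Hoxa3, Hoxa5 and Hoxd10. The log2 fold change of Hoxb8 turned to 0.10 with limma voom, 0.015 with the replicate block, 0.00499 on log2(FPKM + 1) and 0.059 on log2(FPKM + 0.1). With a library left out it spanned -0.27 to 0.47, against -0.075 to 0.045 for Hoxa5, -0.14 to 0.17 for Hoxb5, -0.44 to 0.16 for Hoxc4, -0.62 to 0.11 for Hoxc5, -0.41 to 0.067 for Hoxd4, -0.022 to 0.025 for Hoxd9, -0.015 to 0.023 for Vax2 and -0.025 to 0.072 for Mtx2. The causes were not tested, apart from fewer samples where a library was left out. Low counts limit the Hoxc genes.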
